A study of Mus musculus with 2 samples.

Results

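Genes of glucose uptake, glycolysis, glycogen and lactate were followed in gastrocnemius muscle of mice that had lost PGC-1β in myofibres, PGC-1β(i)skm-/-, and of controls. The members are 44 genes named by symbol in the platform's probe annotation, of which 40 had a value, among 19936 named nuclear genes of the series. The rule goes by gene symbols and uses no measured value, although the members were chosen with earlier results of these data known. Gpi1, Eno1 and Pfkfb1 were not analysed here, and Gapdh, for which 25 probe sets were annotated together with other genes, has no value of its own.

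Each genotype was represented by 1 array, hybridized with RNA pooled from 3 mice. PGC-1β(i)skm-/- mice were male C57BL/6 mice, 8 weeks old, with floxed PGC-1β L2 alleles and a tamoxifen-dependent Cre-ERT2 transgene driven by the human skeletal actin regulatory elements, so that the gene is lost in myofibres while vessels, nerves, connective tissue and immune cells of the muscle keep it. Control mice were littermates of the same age with the same floxed alleles and no transgene, although the sample labels name them wild-type. From 7 weeks of age both genotypes had received tamoxifen, 1 mg daily over 5 days, and the muscle was taken 1 week after the last dose. Effects of the transgene and of the deletion cannot be told apart, and in whole muscle neither can fewer cells of a type and less RNA per cell.

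Glycolysis splits glucose into pyruvate in the cytosol. Fast fibres of muscle draw on it heavily, break down their own glycogen to feed it, and turn much of the pyruvate into lactate, which leaves through monocarboxylate carriers. Oxidative fibres and heart instead take up lactate, turn it back to pyruvate and burn it in their mitochondria. Many steps exist as forms encoded by different genes, some typical of muscle and others of brain, liver or oxidative tissue. PGC-1β is a coactivator of genes of mitochondrial energy metabolism.

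Values are log2 signals per probe set after RMA, and differences are PGC-1β(i)skm-/- minus control on the log2 scale. A ratio is the signal of PGC-1β(i)skm-/- over control muscle, and the limits of 0.8 or less and 1.2 or more are those of the study's methods. With 1 array per genotype there is no replicate error and no test, so that every difference is one between 2 pools. As a measure of the scatter of the probe sets alone, different probe sets of the same gene with a mean signal of 7 or more gave differences with a pooled standard deviation of 0.07 over 486 genes, and the differences of all 19936 genes had a standard deviation of 0.12. Signals of different genes are not compared with each other.

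The targeted gene, Ppargc1b, had a signal of 7.06 in PGC-1β(i)skm-/- and 7.87 in control muscle, the lowest difference of all named genes (-0.81), on a probe set that is not limited to the deleted exon. The 5 myofibre markers Acta1, Ckm, Myh4, Tnnt3 and Actn3 had signals from 13.46 to 13.91 in PGC-1β(i)skm-/- and from 13.45 to 13.88 in control muscle, so that defining genes of skeletal muscle were present. Markers of other cells differed in both directions. All 9 genes of connective tissue lay above 0 (median difference 0.22), with a mean signal of 9.95 in PGC-1β(i)skm-/- and 9.74 in control muscle, from 0.05 (Pdgfra) to ratios of 1.2 or more for Thbs4 (0.27), Tnmd (0.28) and Fmod (0.32). So did all 5 of macrophages (median 0.27, with means of 6.92 in PGC-1β(i)skm-/- and 6.69 in control muscle), from 0.06 (Cd68) to ratios of 1.2 or more for Csf1r (0.27), Mrc1 (0.31) and C1qa (0.37). The 4 of endothelium ran from 0.03 (Kdr) to 0.16 (Cdh5), and the 4 of adipocytes from -0.07 (Adipoq) to 0.21 (Lep), 3 of them above 0. Alas2, the only red cell marker with a value, was at -0.04. Mbp of myelin, the only Schwann cell marker with a value, had a signal of 7.26 in PGC-1β(i)skm-/- and 7.60 in control muscle, a ratio of 0.791. The part of these cells in the values below was not tested.

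Most genes of upper (6 of 8) and lower glycolysis (4 of 5) and 6 of 14 glycogen genes had signals within 0.05 of each other in both genotypes. Hk1 counts here by its brighter probe set. Fbp2, Pfkfb3, Pfkfb4 and the lactate genes of oxidative tissue had lower signals in the mutant. The lower limit of 0.8 was reached by none of the 40 members, and by 0.652% of all named genes. The upper limit of 1.2 was reached by 1 (2.5%), and by 1.64% of all named genes. At a ratio of 1/1.2 or less there was also 1 member, against 1.69% of all genes. Members below and above 0 were even in number, 20 of each, and 50.2% of all genes were below 0. The median difference of the members was -0.0015, and that of all genes -0.00055. Within 0.05 of 0 lay 21 members (52.5%), against 38.6% of all genes.

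**Figure D1:**
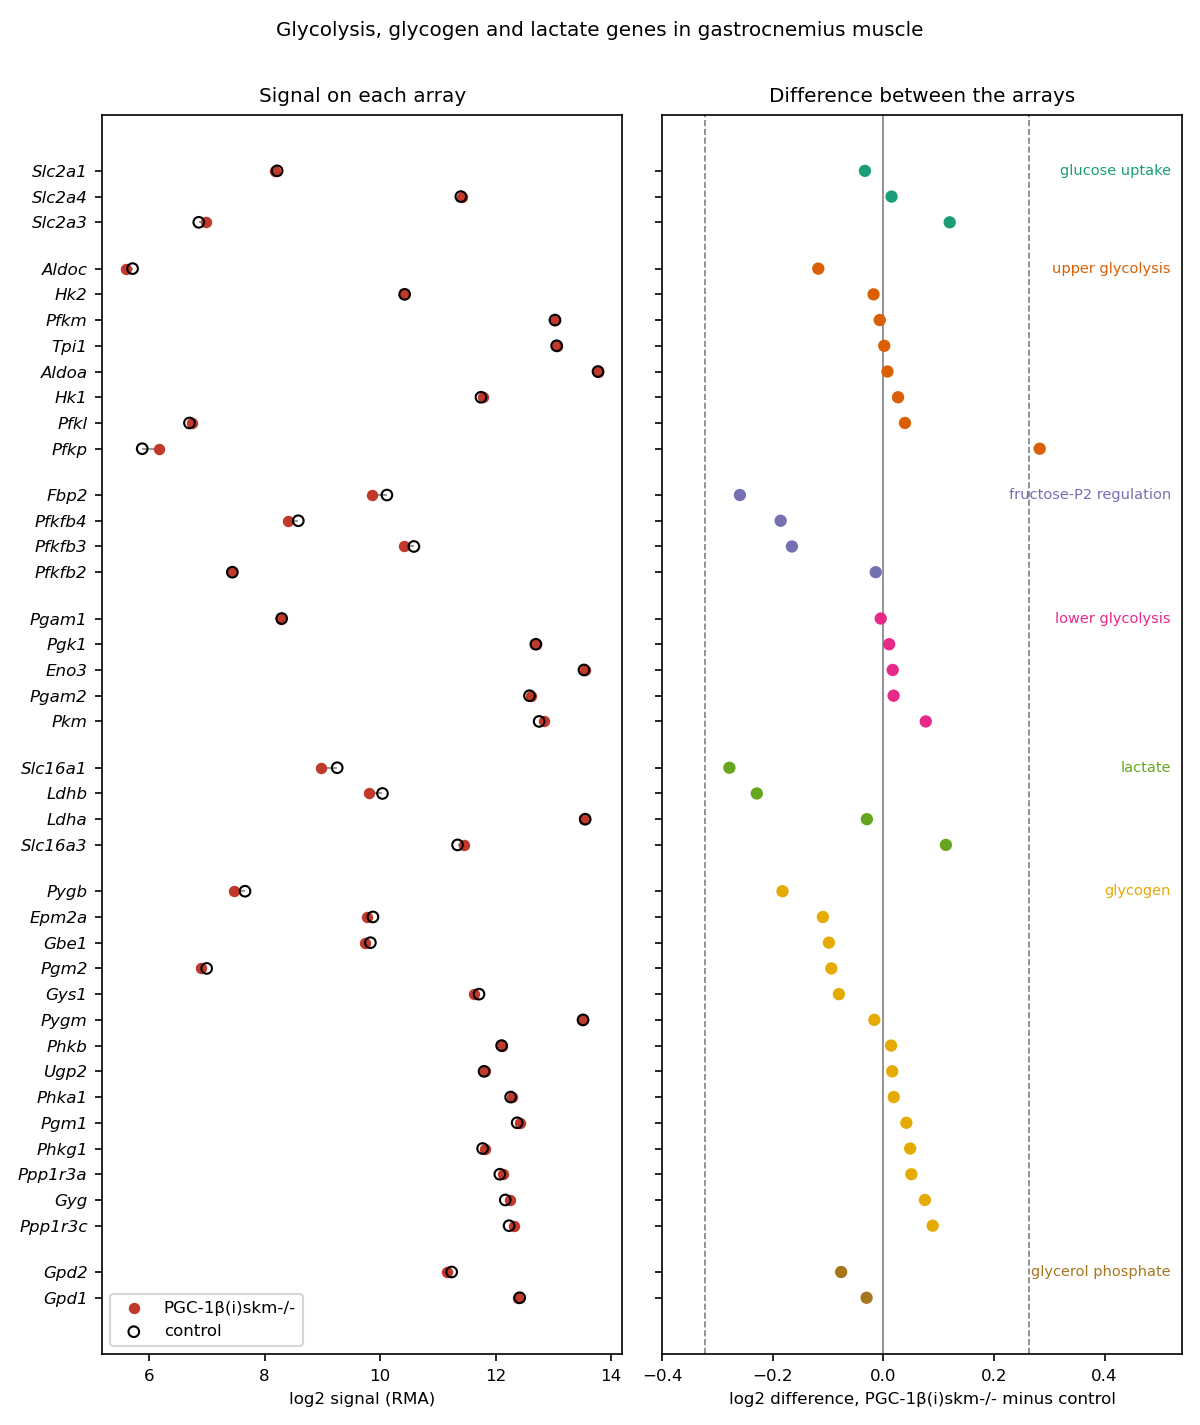
Log2 signal of each of the 40 genes in PGC-1β(i)skm-/- (filled) and control muscle (open circles) in the left panel, and the log2 difference in the right panel, with dashed lines at ratios of 0.8 and 1.2. Each circle is 1 array of 3 pooled mice; only Pfkp lies beyond a dashed line, and Slc16a1 and Fbp2 are the lowest.

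The members were next divided by signal. Of the 23 members with a mean signal of 11 or more, 16 (69.6%) lay within 0.05 of 0, compared with 50.9% of the 560 named genes in that range. Their differences ran from -0.08 to 0.11, whereas all genes of that range ran from -0.42 to 0.34. Hk1 is among these members by its brighter probe set. The range has no upper end, and members were not matched to other genes by signal within it. All 5 myofibre markers, which are bright too, also lay within 0.05. Whether differences of probe sets near the top of the scale are compressed was not tested. Of the 12 members with signals from 7 up to 11, 4 (33.3%) lay within 0.05, against 42.0% of the 7645 genes in that range. All 12 were below 0, with a median of -0.14, against -0.01 for all genes of the range. Over all named genes 50.2% were below 0, and the share within this range was not taken. Of the 5 members below 7, which are Slc2a3, Pfkl, Pfkp, Aldoc and Pgm2, 1 lay within 0.05, against 35.8% of 11731 genes.

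**Figure D2:**
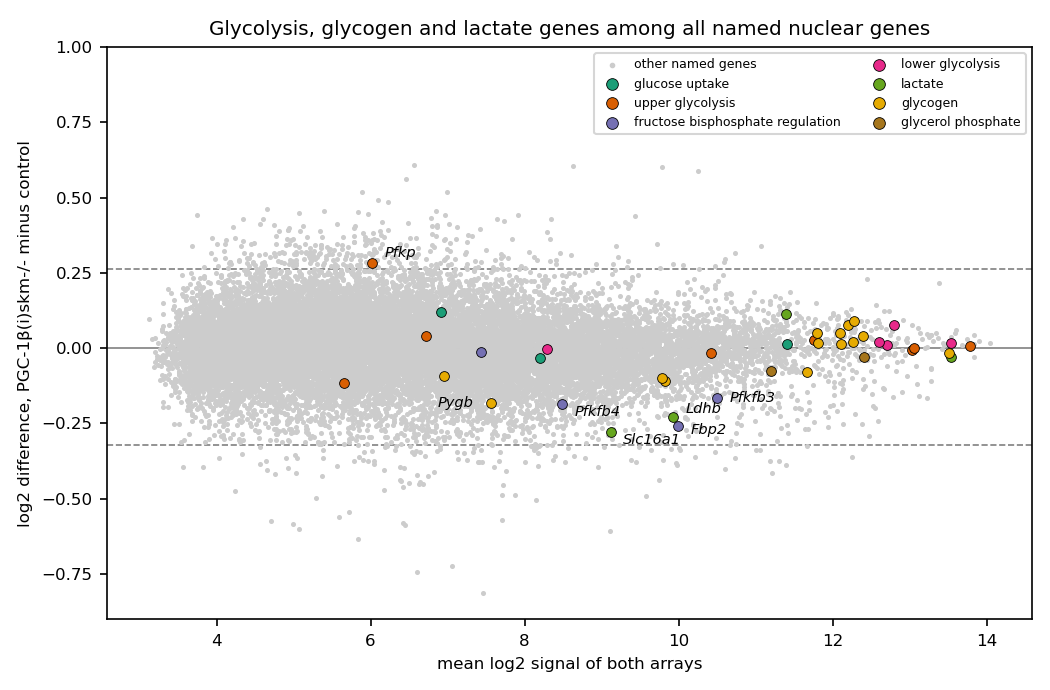
Difference in log2 signal between PGC-1β(i)skm-/- and control muscle (above 0: higher in the mutant) against the mean log2 signal of both arrays for 19936 named nuclear genes (grey) and the members by role (coloured); dashed lines mark ratios of 0.8 and 1.2. Members with a signal of 11 or more lie between -0.08 and 0.11, and the labelled genes are those farthest below 0 together with Pfkp.

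Glucose enters the fibre through carriers of the Slc2a family. Slc2a4, encoding GLUT4, the carrier that insulin and contraction bring to the surface, had a signal of 11.41 in PGC-1β(i)skm-/- and 11.40 in control muscle. Slc2a1, encoding the widespread carrier GLUT1, had 8.18 in PGC-1β(i)skm-/- and 8.22 in control muscle. Both differed by less than the 0.07 of scatter between probe sets. Slc2a3, encoding GLUT3 of neurons and blood cells, had 6.98 in PGC-1β(i)skm-/- and 6.86 in control muscle, a difference of 0.12. Its mean signal of 6.92 is dim, and the differences of all genes below 7 had a standard deviation of 0.12.

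The enzymes from hexokinase to triose phosphate isomerase prepare glucose for its splitting. Hk2, the hexokinase typical of insulin-sensitive muscle, had a signal of 10.41 in PGC-1β(i)skm-/- and 10.43 in control muscle, and Hk1, bound to mitochondria in many tissues, had 11.77 in PGC-1β(i)skm-/- and 11.75 in control muscle. Pfkm, the phosphofructokinase of muscle at the committed step, had 13.02 in PGC-1β(i)skm-/- and 13.03 in control muscle. These differences were within 0.03 of 0. The other probe set of Hk1 was far dimmer, with 6.98 in PGC-1β(i)skm-/- and 6.92 in control muscle, a difference of 0.06. Which of these probe sets reads Hk1 was not tested, and the brighter value may not be that of Hk1. Aldoa, the aldolase of muscle, had 13.783 in PGC-1β(i)skm-/- and 13.775 in control muscle, and Tpi1, triose phosphate isomerase, 13.060 in PGC-1β(i)skm-/- and 13.058 in control muscle.

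Phosphofructokinase and aldolase forms of other tissues differed more between the pools, Pfkl excepted. Pfkp, the phosphofructokinase of platelets and other cells, had a signal of 6.16 in PGC-1β(i)skm-/- and 5.88 in control muscle, a ratio of 1.22, the highest of the members and the only one past a limit. At a mean signal of 6.02 it is dim, and it stood at rank 251 from the highest of all named genes. Pfkl, the liver form, had 6.74 and 6.70 in PGC-1β(i)skm-/- and control muscle. Aldoc, the aldolase of brain, also dim, had 5.59 in PGC-1β(i)skm-/- and 5.71 in control muscle.

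The lower part of the pathway recovers ATP and ends in pyruvate. Pgk1, phosphoglycerate kinase, had a signal of 12.71 in PGC-1β(i)skm-/- and 12.70 in control muscle. Pgam2, the mutase of muscle, had 12.61 in PGC-1β(i)skm-/- and 12.59 in control muscle, and Eno3, the enolase of muscle, 13.55 and 13.53 in PGC-1β(i)skm-/- and control muscle. Pgam1, the mutase of other tissues, had 8.290 in PGC-1β(i)skm-/- and 8.295 in control muscle. All 4 differed by less than 0.02. Pkm, pyruvate kinase, had 12.83 in PGC-1β(i)skm-/- and 12.76 in control muscle, a difference of 0.08, whereas its other probe set was at -0.02. Pgk1 and Pgam1 each had a pair of probe sets with identical values, so that near-identical gene copies may share their probes.

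Of the 4 measured genes that set the traffic between fructose phosphate and fructose bisphosphate, 3 were lower in the mutant pool by more than the scatter of probe sets. That scatter holds no variation between mice or pools. Pfkfb enzymes make and remove the sugar phosphate that switches phosphofructokinase on, and Fbp2, the fructose bisphosphatase of muscle, runs the committed step backwards. Fbp2 had a signal of 9.86 in PGC-1β(i)skm-/- and 10.12 in control muscle, 16.4% lower, at rank 351 from the lowest of 19936 genes. Pfkfb4 had 8.40 in PGC-1β(i)skm-/- and 8.58 in control muscle, 12.1% lower, at rank 999. Pfkfb3, the inducible form, had 10.42 in PGC-1β(i)skm-/- and 10.59 in control muscle, 10.8% lower, at rank 1336. Pfkfb2, known from heart, had 7.43 in PGC-1β(i)skm-/- and 7.44 in control muscle, and so differed by less than the scatter of probe sets. All 4 measured genes of this group lay below 0, with a median of -0.18, and none reached a ratio of 0.8.

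Among the 4 lactate genes, those typical of oxidative tissue had the lowest differences. Slc16a1, encoding MCT1, the carrier by which oxidative fibres and heart take up lactate, had a signal of 8.98 in PGC-1β(i)skm-/- and 9.26 in control muscle, a ratio of 0.825 and the lowest difference of the members (-0.28, rank 280 from the lowest). Ldhb, the heart form of lactate dehydrogenase, had 9.81 in PGC-1β(i)skm-/- and 10.04 in control muscle, a ratio of 0.853 at rank 568. Its other probe set had 9.62 in PGC-1β(i)skm-/- and 9.94 in control muscle, a difference of -0.32, so that both read lower and only the second was at 0.8 or less. Slc16a3, encoding MCT4, the carrier by which glycolytic fibres release lactate, was higher in the mutant, with 11.46 in PGC-1β(i)skm-/- and 11.34 in control muscle. Its difference of 0.11 is within the standard deviation of 0.12 over all genes. Ldha, the muscle form of the dehydrogenase, had 13.52 in PGC-1β(i)skm-/- and 13.55 in control muscle, and so was also below 0 (-0.03).

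Set side by side, several forms of other tissue differed from the form of glycolytic muscle. The difference of Slc16a1 minus that of Slc16a3 was -0.39, that of Ldhb minus Ldha -0.20, and that of Pygb, the glycogen phosphorylase of brain, minus Pygm, the form of muscle, -0.17. Aldoc minus Aldoa gave -0.12, whereas Pfkp minus Pfkm gave 0.29. The remaining pairs, Hk1 minus Hk2, Pfkl minus Pfkm and Pgam1 minus Pgam2, gave 0.04, 0.05 and -0.02, within the scatter of probe sets. Of 11 genes counted as forms of muscle, 10 (90.9%) lay within 0.05 of 0, with a range from -0.03 to 0.11. Of these 11 genes, 10 had a signal of 11 or more, where the share over all genes was 50.9%. Of 8 counterparts, 3 (37.5%) lay within 0.05, near the 38.6% of all genes, with a range from -0.28 to 0.28. The assignment to forms is textbook knowledge, and the counterparts include the dim Pfkp, Pfkl and Aldoc. Fbp2 (-0.26), Gys1 (-0.08) and Ppp1r3a (0.051), also described here as of muscle, were not counted, and none of them lay within 0.05. Fbp1 (0.03) and Gys2 (-0.16), both dim, were likewise not counted as counterparts. The shares therefore depend on which genes were classed. Hk1 stands by its brighter probe set, and its other one, at 0.06, was not within 0.05 of 0. Which of the probe sets reads Hk1 was not tested.

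**Figure D3:**
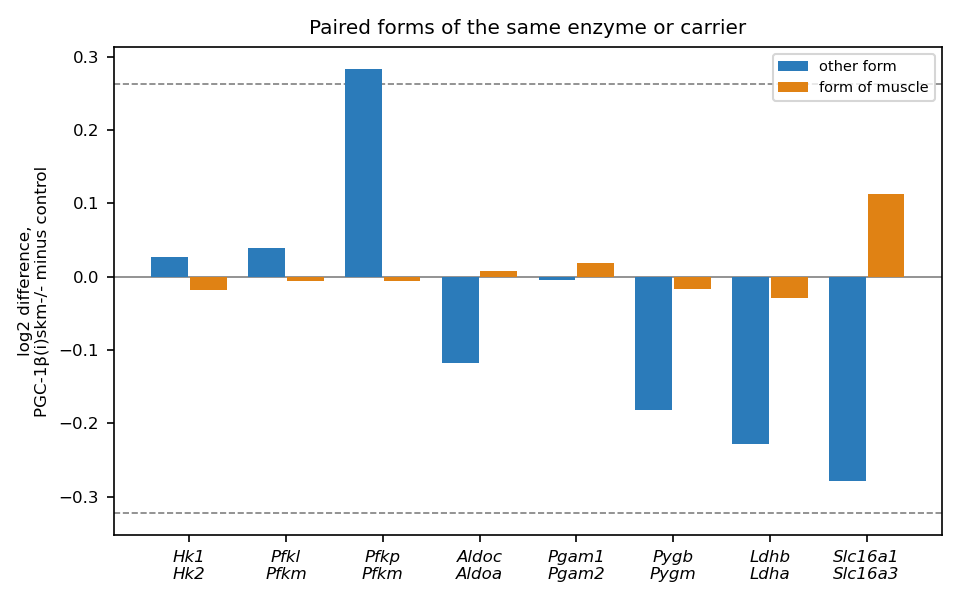
Difference in log2 signal between PGC-1β(i)skm-/- and control muscle (above 0: higher in the mutant) for 8 pairs of genes encoding forms of the same enzyme or carrier, with the form typical of other tissue in blue and that of muscle in orange; dashed lines mark ratios of 0.8 and 1.2. Each bar is the difference of 2 arrays and has no error; Ldhb and Slc16a1 reach -0.23 and -0.28 beside -0.03 for Ldha and 0.11 for Slc16a3.

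Glycogen genes had a median difference of 0.02, with 8 of 14 above 0. For its breakdown, Pygm had a signal of 13.50 in PGC-1β(i)skm-/- and 13.52 in control muscle, and the subunits of phosphorylase kinase, which activates it, were close to 0. Phka1 had 12.28 in PGC-1β(i)skm-/- and 12.26 in control muscle, Phkb 12.12 in PGC-1β(i)skm-/- and 12.11 in control muscle, and Phkg1 11.82 in PGC-1β(i)skm-/- and 11.78 in control muscle. In the brain form the pools differed more. Pygb had 7.48 in PGC-1β(i)skm-/- and 7.66 in control muscle, 11.9% lower and the lowest of the group. Pgm1, which links glycogen and glycolysis through glucose phosphate, had 12.41 in PGC-1β(i)skm-/- and 12.37 in control muscle, and its relative Pgm2 had 6.902 in PGC-1β(i)skm-/- and 6.996 in control muscle.

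For the building of glycogen, Gyg, encoding the glycogenin that primes the particle, had a signal of 12.24 in PGC-1β(i)skm-/- and 12.17 in control muscle. Gys1, the glycogen synthase of muscle, had 11.63 in PGC-1β(i)skm-/- and 11.71 in control muscle, and Gbe1, the branching enzyme, 9.73 in PGC-1β(i)skm-/- and 9.83 in control muscle. Ugp2, which makes the activated glucose for the synthase, had 11.82 in PGC-1β(i)skm-/- and 11.80 in control muscle. The primer gene thus lay above 0, and the synthase and branching genes below it, by 0.10 or less.

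Regulators of the particle were also divided. Ppp1r3c, which brings a phosphatase to glycogen and so favours its synthesis, had 12.32 in PGC-1β(i)skm-/- and 12.23 in control muscle, and Ppp1r3a, of the same kind and typical of muscle, 12.12 in PGC-1β(i)skm-/- and 12.07 in control muscle. Epm2a, encoding laforin, a phosphatase of glycogen itself, had a signal of 9.77 in PGC-1β(i)skm-/- and 9.88 in control muscle, 7.29% lower. The glycerol phosphate shuttle carries reducing equivalents of glycolysis to the respiratory chain. Its cytosolic enzyme Gpd1 had 12.39 in PGC-1β(i)skm-/- and 12.42 in control muscle, and its mitochondrial enzyme Gpd2 had 11.16 in PGC-1β(i)skm-/- and 11.24 in control muscle.

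Genes that turn pyruvate into acetyl-CoA, and those that carry reducing equivalents into mitochondria, mostly had lower signals in the same mutant pool. Of 13 genes from pyruvate import to acetyl-CoA and its control, 12 lay below 0, with a median of -0.11. Within 0.05 of 0 lay 4 of them, Mpc1, Pdk2, Pdk3 and Pdk4. Over all named genes 50.2% were below 0 and 38.6% within 0.05. Pdhb, a subunit of pyruvate dehydrogenase, had a signal of 9.52 in PGC-1β(i)skm-/- and 9.96 in control muscle, and Dlat, its acetyltransferase, 10.40 in PGC-1β(i)skm-/- and 10.80 in control muscle, both at a ratio under 0.8. Pdk4, a kinase that switches the complex off, had 13.20 in both, and Pdk3, at 0.02, was the only gene above 0. Mpc1, of the pyruvate carrier, was at -0.03, and Mpc2 had no value.

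All 7 genes of the malate-aspartate shuttle were below 0, with a median of -0.13. Mdh1, its cytosolic malate dehydrogenase, had 11.50 in PGC-1β(i)skm-/- and 11.82 in control muscle, a ratio of 0.799, and Slc25a13, dim at 5.44 in PGC-1β(i)skm-/- and 5.47 in control muscle, had the difference nearest to 0. For the citric acid cycle the median was -0.25, with 13 of 13 below 0. Sdhb (-0.42), Sdhd (-0.36) and Suclg1 (-0.34) had ratios under 0.8, and Cs, citrate synthase, was nearest to 0 at -0.05. These lists stand beside the members as a contrast and were chosen with earlier results of these arrays known.

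**Figure D4:**
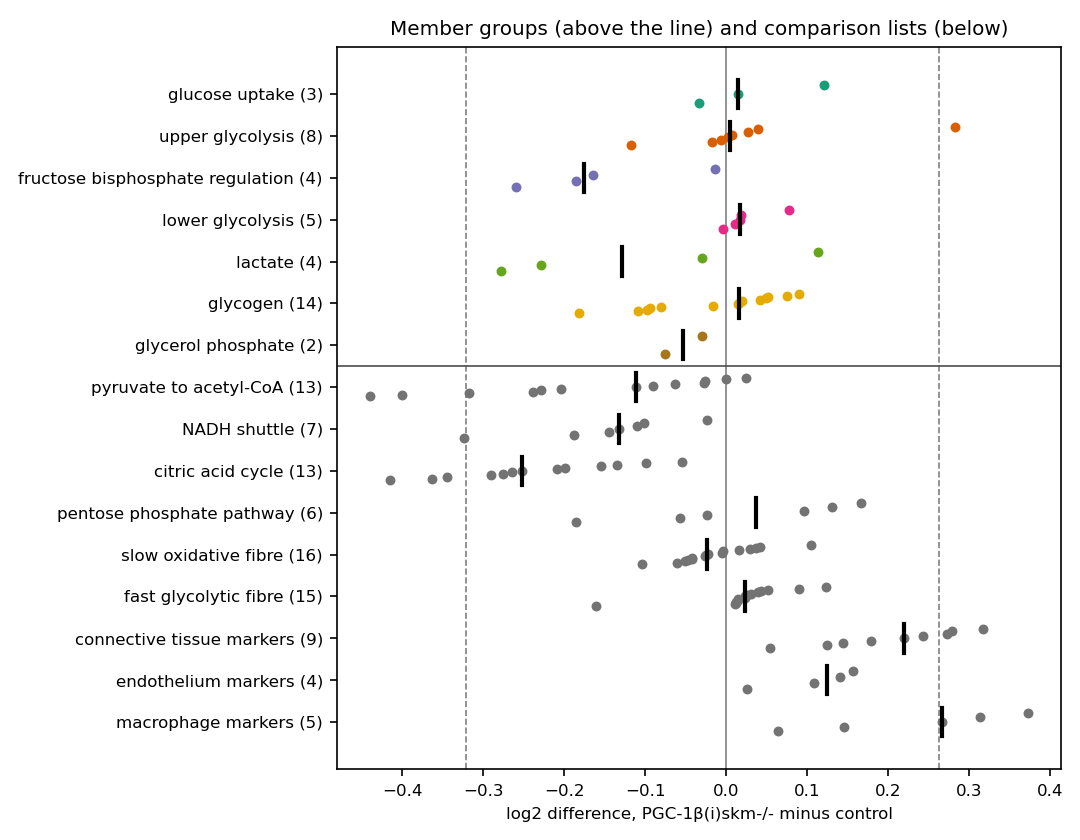
Difference in log2 signal between PGC-1β(i)skm-/- and control muscle (above 0: higher in the mutant) of each gene (points) in the role groups of the members (above the horizontal line) and in comparison lists (below it), with black bars at medians, numbers of measured genes in brackets and dashed lines at ratios of 0.8 and 1.2. Medians lie at 0.0046 for upper and 0.02 for lower glycolysis, -0.18 for fructose bisphosphate regulation, -0.13 for lactate genes and -0.25 for the citric acid cycle.

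Genes of fibre types were compared in the same pools. Myh4, the myosin of the most glycolytic fibres, had a signal of 13.57 in PGC-1β(i)skm-/- and 13.56 in control muscle. Myh7 of slow fibres had 10.58 in PGC-1β(i)skm-/- and 10.62 in control muscle, and Myh2 of fast oxidative fibres 12.78 in PGC-1β(i)skm-/- and 12.80 in control muscle. Myh1, of the fast fibres between these, had 12.71 in PGC-1β(i)skm-/- and 12.87 in control muscle, the largest difference among these myosins. Of 16 genes of slow oxidative fibres 11 were below 0, from -0.10 (Fabp3) to 0.11 (Myl2), with a median of -0.02. Of 15 genes of fast glycolytic fibres 14 were above 0, from -0.16 (Myh1) to 0.12 (Ampd1), with a median of 0.02. Over all named genes 50.2% were below 0. Within 0.05 of 0 lay 12 of the 16 slow and 11 of the 15 fast genes. The share was 38.6% over all genes and 50.9% over those with a signal of 11 or more. No gene of either list had a ratio past 0.8 or 1.2.

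Other genes of the same pathways were spread around 0. Of 25 further genes of glycolysis and gluconeogenesis, 14 were above 0 and none was past a limit. The lowest was Ldhd, a mitochondrial dehydrogenase of D-lactate, with 8.21 in PGC-1β(i)skm-/- and 8.42 in control muscle, and the highest was Gckr, a regulator of glucokinase in liver, dim at 4.66 in PGC-1β(i)skm-/- and 4.39 in control muscle. Bsg, the partner that brings Slc16a1 and Slc16a3 to the membrane, had 11.78 in PGC-1β(i)skm-/- and 11.87 in control muscle. Of 18 further glycogen genes, 11 were above 0, and Ppp1r3b, a phosphatase subunit known from liver, was past 1.2 at dim signals of 5.62 in PGC-1β(i)skm-/- and 5.34 in control muscle. The lowest was Gys2, the synthase of liver, at -0.16.

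The pentose phosphate pathway branches off at glucose phosphate and yields reducing power and ribose. Of its 6 measured genes 3 were above 0. Pgd had a signal of 7.80 in PGC-1β(i)skm-/- and 7.63 in control muscle, the highest difference, and Pgls had 7.19 in PGC-1β(i)skm-/- and 7.38 in control muscle, the lowest. Pgls encodes the lactonase of the pathway and Pgd the dehydrogenase that acts on its product.

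Promoter sequences are shown for the members lowest in the mutant pool, and for Ldha as the counterpart of Ldhb. Hypoxia-inducible factor, an inducer of glycolytic genes, binds the letters ACGTG or, in the other form of its core, GCGTG, which were searched on both strands from 250 bases before to 50 after each RefSeq start of GRCm38.p6. Of 44 members, 41 had such a window. ACGTG was found for 25 of the 41 (61.0%), against 23.2% of 17492 protein-coding genes, and GCGTG for 25 (61.0%), against 41.4%. The members had 60 windows in all, and by window the shares were 48.3% against 20.9% for ACGTG and 51.7% against 38.5% for GCGTG. The longer CACGTG, which holds ACGTG on each strand, was found for 8 members (19.5%), Slc16a1, Fbp2, Pfkfb3 and Ldha among them, against 8.91% of all genes. AAGGTCA, the letters read by estrogen-related receptors, partners of PGC-1β, was in the windows of Eno1, Pfkfb1 and Tpi1 (7.32%), against 4.73% of genes, and CCGGAAG of GABPA in those of Aldoc, Pfkfb1 and Phkb (7.32%), against 12.9%. A match says only that the letters are there.

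In each sequence, given 5′ to 3′ on the strand of the gene, capitals mark ACGTG and the related core GCGTG, on either strand. The windows lie at chr3:104638414-104638713 (plus strand) for Slc16a1, chr6:142507908-142508207 (minus) for Ldhb, chr13:62858351-62858650 (minus) for Fbp2 and chr7:46845554-46845853 (plus) for the first listed start of Ldha.
Slc16a1: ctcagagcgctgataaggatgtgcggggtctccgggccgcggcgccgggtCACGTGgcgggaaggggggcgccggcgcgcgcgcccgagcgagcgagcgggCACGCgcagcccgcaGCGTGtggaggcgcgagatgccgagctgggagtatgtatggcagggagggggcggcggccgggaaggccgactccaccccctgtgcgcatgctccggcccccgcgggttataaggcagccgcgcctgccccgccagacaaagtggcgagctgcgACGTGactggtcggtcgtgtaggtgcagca
Ldhb: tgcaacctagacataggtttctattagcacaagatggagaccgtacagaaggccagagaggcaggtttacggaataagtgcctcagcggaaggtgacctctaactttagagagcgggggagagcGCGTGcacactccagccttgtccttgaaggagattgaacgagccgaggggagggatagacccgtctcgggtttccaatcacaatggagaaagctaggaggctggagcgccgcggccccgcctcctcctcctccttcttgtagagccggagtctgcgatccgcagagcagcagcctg
Fbp2: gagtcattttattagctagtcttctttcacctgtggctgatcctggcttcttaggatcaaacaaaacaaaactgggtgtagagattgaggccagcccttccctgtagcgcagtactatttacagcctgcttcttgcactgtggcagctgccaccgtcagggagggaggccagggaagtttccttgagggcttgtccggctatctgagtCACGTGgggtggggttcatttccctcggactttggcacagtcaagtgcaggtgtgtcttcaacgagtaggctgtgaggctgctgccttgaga
Ldha: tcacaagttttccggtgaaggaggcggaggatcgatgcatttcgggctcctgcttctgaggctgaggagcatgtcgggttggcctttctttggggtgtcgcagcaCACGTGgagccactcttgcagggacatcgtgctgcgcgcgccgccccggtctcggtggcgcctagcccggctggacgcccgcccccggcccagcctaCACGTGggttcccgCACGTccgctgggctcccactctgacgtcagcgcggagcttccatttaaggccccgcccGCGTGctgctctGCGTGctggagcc

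The window of Slc16a1 held 5 matches, that of Fbp2 2 on the same letters read from either strand, that of Ldhb 1 and that of Ldha 7. Slc16a1 and Ldhb, both lower in the mutant pool, thus differ in their counts, and Ldha, at -0.03, holds the most of the 4. None of these 4 windows held AAGGTCA.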

How the data were processed

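RNA of gastrocnemius muscle was measured on 2 Affymetrix Mouse Gene 1.0 ST arrays, 1 of PGC-1β(i)skm-/- and 1 of control mice, with 3 mice pooled on each and 150 ng of total RNA labelled. Scans were read by GeneChip Command Console 3.2, and RMA in Expression Console 1.1 gave the log2 signals that the authors deposited. RMA corrects background, makes the distributions of both arrays alike and summarizes probes by median polish. A shift shared by all genes would therefore not be seen, and differences of dim probe sets are compressed. Compression at the top of the scale was not tested. No coordinates of probe sets were used.

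Of 35556 probe sets, 21789 had 1 gene symbol, updated by Entrez ID to RefSeq symbols of GRCm38.p6 for 21698 of them. Probe sets of several genes (1621) or none (12146) were left out. The probe set of highest mean signal stood for a gene. No test was made, since 1 array per genotype gives no error, and the number of arrays limits all precision. The members and lists were chosen with earlier results of these data known. All members are named, and of other lists the genes past 0.8 or 1.2, the extremes and the fibre myosins, with others such as Bsg, Pdk4 and Mpc1 added after their values were seen. The calculation was run on simulated data with planted differences as a check of the arithmetic only, which gives no error rate for these arrays. Calculations ran in pandas 2.3.3, statsmodels 0.14.6 and numpy 2.4.6 (Python 3.11.15).

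Other settings tried were averaging a gene's probe sets, mean signals of at least 6 or 7, a loess curve (span 0.3) or the median of all genes subtracted, and other limits. The probe set of lowest mean signal, and members with 1 probe set only, were added after seeing the data.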

Additional observations from a re-analysis of the deposited data

How the results depend on the processing

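The median difference of the members stayed between -0.0064 and 0.0017 over 7 alternatives. Against a main count of 0 members at a ratio of 0.8 or less, there was 1 at 1/1.2 or less (Slc16a1) and 1 with the probe set of lowest mean signal (Ldhb, at -0.32), a setting chosen after seeing the data. The 1 member at 1.2 or more, Pfkp, was lost at both higher limits tried (0 members) and with a mean signal of at least 7 (0), since its own signal is below it. With the probe set of lowest mean signal, Pkm turned to -0.018. The other 232 values of single members moved by less than 0.05, as did the medians of the role groups. No spread of replicates exists, so 0.05 was taken as the tolerance. No paired analysis was possible because each genotype has 1 array. RMA compresses dim signals, which limits Aldoc, Pfkp, Pfkl, Slc2a3 and Pgm2, the members with mean signals below 7.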
